A study of Mus musculus with 8 samples.

Results

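Chemokine ligand genes encode the secreted proteins that attract leukocytes. They were taken from the deposited table by name, as every row whose symbol starts with Ccl or Cxcl followed by a digit, together with Cx3cl1, Xcl1, Pf4 and Ppbp. This gave 44 of 37979 rows and 43 symbols, since Ccl25 has 2 overlapping gene identifiers. Of these rows, 41 had a value above 0 in at least 1 library and were tested, and 3 (Ccl26, Ccl27b and Ccl28) were listed at 0 in all 8 libraries. The 35 members with a mean of at least 1 FPKM in at least 1 group are named, and the others are given as counts and ranges.

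The libraries were bulk RNAseq of pericytes and SMCs (smooth muscle cells) freshly sorted from hindlimb muscles, with 4 libraries of each, PC-1 to PC-4 and SMC-1 to SMC-4. All mice carried Ai14+/−;SM22α-Cre+, were of both sexes and were 3 to 4 months old. In these mice the SM22α promoter drives Cre, which permanently switches on tdTomato. The labels and methods say that CD31+, CD45+ and dead cells were gated out, although a legend of the gating scheme writes both populations as CD31+, and PDGFRβ+ cells without tdTomato were taken as pericytes and those with tdTomato as SMCs. Multiple sorts were combined for each library and the animals behind each are not named, so p-values measure the spread between these libraries only. PDGFRβ is also made by perivascular fibroblasts, which limits both groups as a model of mural cells.

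Chemokines are small proteins that bind heparan sulfate on vessel walls and signal through G protein-coupled receptors on leukocytes. They are classed by the spacing of their first cysteines. Vascular and stromal cells are known to make ligands for monocytes and neutrophils after injury or inflammatory cytokines, whereas T and NK cells are known sources of Ccl5 and Xcl1. Atypical chemokine receptors bind the ligands and remove or transport them without G protein signalling.

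The cysteine spacing that defines each class is shown for members that carry the results below. Each line gives 45 coding bases, 5′ to 3′, from GENCODE version M1 (NCBI Build 37), starting 6 codons before the first cysteine of the mature domain, with the defining cysteine codons in capitals.
Ccl8: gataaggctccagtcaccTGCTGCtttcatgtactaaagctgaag
Ccl12: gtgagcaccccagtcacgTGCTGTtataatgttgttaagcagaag
Ccl3: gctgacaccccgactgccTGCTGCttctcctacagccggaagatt
Cxcl1: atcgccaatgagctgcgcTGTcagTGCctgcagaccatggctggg
Cxcl10: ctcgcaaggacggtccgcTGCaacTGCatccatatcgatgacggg
Cxcl12: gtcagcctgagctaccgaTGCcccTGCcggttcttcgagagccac
Cx3cl1: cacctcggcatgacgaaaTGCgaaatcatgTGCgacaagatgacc
Xcl1: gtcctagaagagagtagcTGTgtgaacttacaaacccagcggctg
In the CC ligands Ccl8, Ccl12 and Ccl3 the cysteine codons were adjacent. They were separated by 1 codon in the CXC ligands and by 3 codons in Cx3cl1, and Xcl1 had a single cysteine codon there. Cxcl1 had the ELR codons (glutamate, leucine, arginine) directly before its first cysteine, the motif known for neutrophil attraction through Cxcr2, and Cxcl10 and Cxcl12 did not.

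The FPKM of a library summed to 690247 to 1190440 in pericytes (highest in PC-2) and to 656405 to 737839 in SMCs, and 12713 to 13194 genes had at least 1 FPKM. Read counts are not in the table, and relative depth estimated from its lowest values ranged from 0.871 to 1.07. The labels were checked against marker lists. Of 8 mural and 6 smooth muscle markers 0 were called by the limma test described below (5 and 3 were higher in SMCs at an unadjusted p below 0.05), and their summed FPKM was 37.8 to 101 and 532 to 1845 across the pericyte libraries, against 79.2 to 339 and 1692 to 5326 across the SMC libraries. With the replicate number as block, the mural marker Pdgfrb was called higher in SMCs (limma q = 0.00601 in place of 0.0973). Of the T cell, B cell, and NK and cytotoxic lists, 7 of 8, 5 of 6 and 6 of 6 genes were called higher in pericytes, and Ptprc, which encodes the CD45 used to gate leukocytes out, had 80.6 to 230.3 FPKM across PC-1 to PC-4 and 4.34 to 11.9 FPKM across SMC-1 to SMC-4. Pecam1, which encodes CD31, had 25.0 to 59.7 FPKM across PC-1 to PC-4 and 102 to 301 FPKM across SMC-1 to SMC-4 and was called higher in SMCs (log2 fold change 2.06 (SE 0.39, limma q = 0.00873)). A few genes that cells of these kinds normally use, such as Dcn in SMCs, were listed at 0 in a whole group, so a 0 in this table may be a failed estimate.

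Most of the chemokine ligand genes that differed were higher in SMCs. With limma on log2(FPKM + 1), log2 fold changes are given as SMCs minus pericytes with their standard error (SE), and genes with a q value below 0.05 and a log2 fold change beyond 2 are referred to as called. By this rule 13 of 41 members were called higher in SMCs, where 2.66% of all 27414 genes tested were, and 2 of 41 (Xcl1 and Ccl5) were called higher in pericytes, where 3.24% of all genes were. At a q value below 0.05 without the fold threshold, 17 members were higher in SMCs (11.2% of all genes) and 3 were higher in pericytes (10.6% of all genes), and 21 did not pass. All 4 SMC libraries lay above all 4 pericyte libraries for 18 members (12.5% of all genes), and the reverse held for 3 members (12.1% of all genes). The median log2 fold change of the 41 members was 0.79, and that of all genes tested was -0.02. The median of the members was 1.40 with a pseudocount of 0.1 and 1.69 over the 31 members left by a filter at 1 FPKM in 4 libraries, and limma's treat called 8 members higher in SMCs. When single libraries were left out, between 10 and 14 members were called higher in SMCs and 2 in pericytes.

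**Figure D1:**
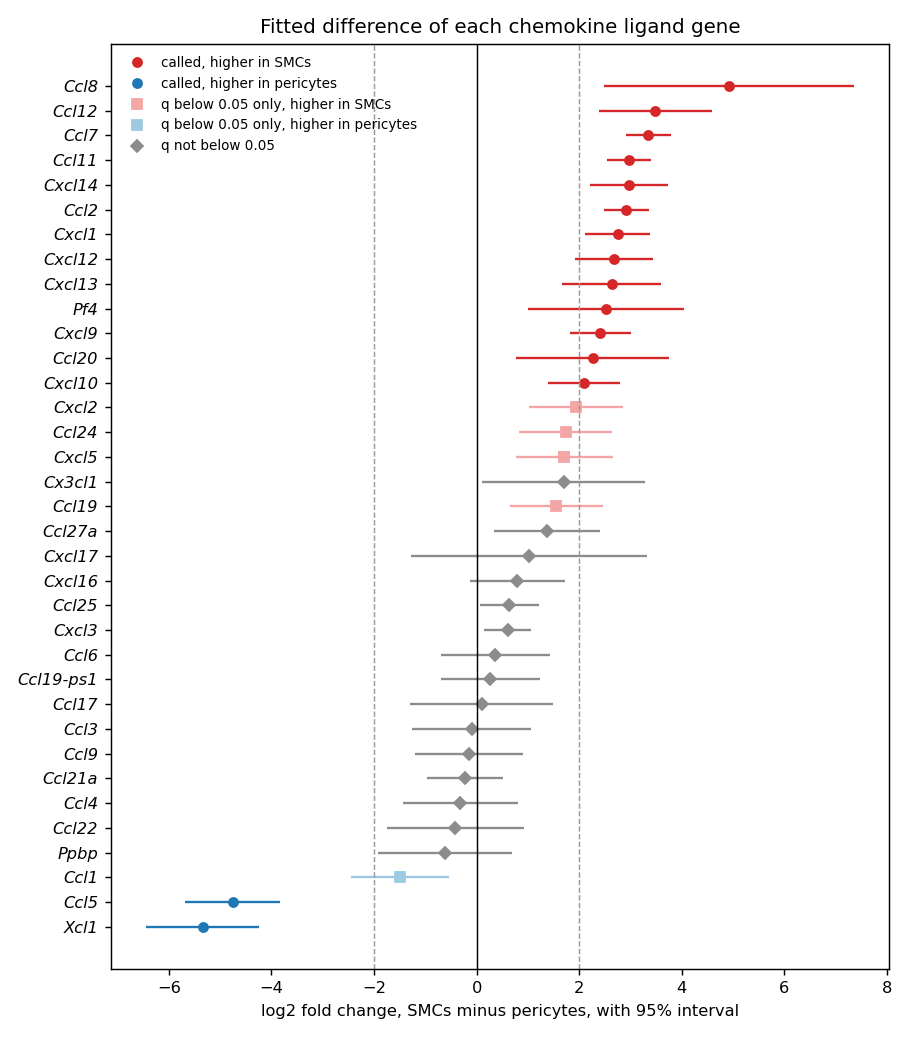
Fitted log2 fold change (SMCs minus pericytes, on log2(FPKM + 1)) of the 35 named chemokine ligand genes with 95% intervals, where dashed lines mark the fold threshold of 2 and colours mark the call. Ccl8 is at the top with 4.91 and the widest interval among the called genes, and Ccl5 and Xcl1 stand apart at the bottom with -4.75 and -5.34.

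The ligands grouped here as monocyte and eosinophil attractants (Ccl2, Ccl7, Ccl8, Ccl11, Ccl12 and Ccl24) were higher in SMCs. All 6 tested were higher in SMCs at a q value below 0.05 and 5 were called. Ccl2, the main attractant of inflammatory monocytes through Ccr2, had 51.5, 76.8, 45.4 and 48.5 FPKM in PC-1 to PC-4 and 413, 344, 493 and 433 FPKM in SMC-1 to SMC-4. Ccl7, which binds the same receptor, had 50.3, 52.0, 40.1 and 51.6 FPKM in PC-1 to PC-4 and 471, 365, 547 and 665 FPKM in SMC-1 to SMC-4. Each SMC library exceeded each pericyte library by several fold for both genes. The ratio of group means was 7.58 for Ccl2 and 10.6 for Ccl7. Their log2 fold changes were 2.92 (SE 0.19, limma q = 7.55e-05) and 3.35 (SE 0.19, limma q = 4.82e-05).

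Ccl12, a mouse ligand of Ccr2, had 1.05, 5.56, 4.74 and 3.59 FPKM in PC-1 to PC-4 and 42.8, 53.3, 26.1 and 84.8 FPKM in SMC-1 to SMC-4. It was low in every pericyte library and its log2 fold change was 3.48 (SE 0.47, limma q = 0.0019). Ccl8, which in mice acts through Ccr8, had 3.31, 5.87, 2.21 and 22.4 FPKM in PC-1 to PC-4 and 76.7, 69.0, 295 and 1135 FPKM in SMC-1 to SMC-4. The groups did not overlap, but SMC-4 was 16.5 times SMC-2 and PC-4 was 10.1 times PC-3, the widest spread within a group among the 5 called ligands of this class. Its log2 fold change was 4.91 (SE 1.04, limma q = 0.0139) with a 95% interval of 2.48 to 7.35, and leaving out single libraries gave 4.09 to 5.50.

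Ccl11 (eotaxin-1), which draws eosinophils through Ccr3, had 39.5, 47.9, 38.4 and 37.1 FPKM in PC-1 to PC-4 and 445, 335, 249 and 299 FPKM in SMC-1 to SMC-4, a log2 fold change of 2.97 (SE 0.18, limma q = 6.28e-05). Ccl24 (eotaxin-2), a ligand of the same receptor, was much lower at 0 to 0.269 FPKM across PC-1 to PC-4 and 0.919 to 6.32 FPKM across SMC-1 to SMC-4. All SMC libraries were higher than all pericyte libraries for both eotaxins. For Ccl24 the log2 fold change of 1.74 (SE 0.38, limma q = 0.0168) was below the fold threshold, which it passed with a pseudocount of 0.1 (3.69, limma q = 0.00377), with each library scaled to the same sum (2.09) and without SMC-4 (2.06).

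**Figure D2:**
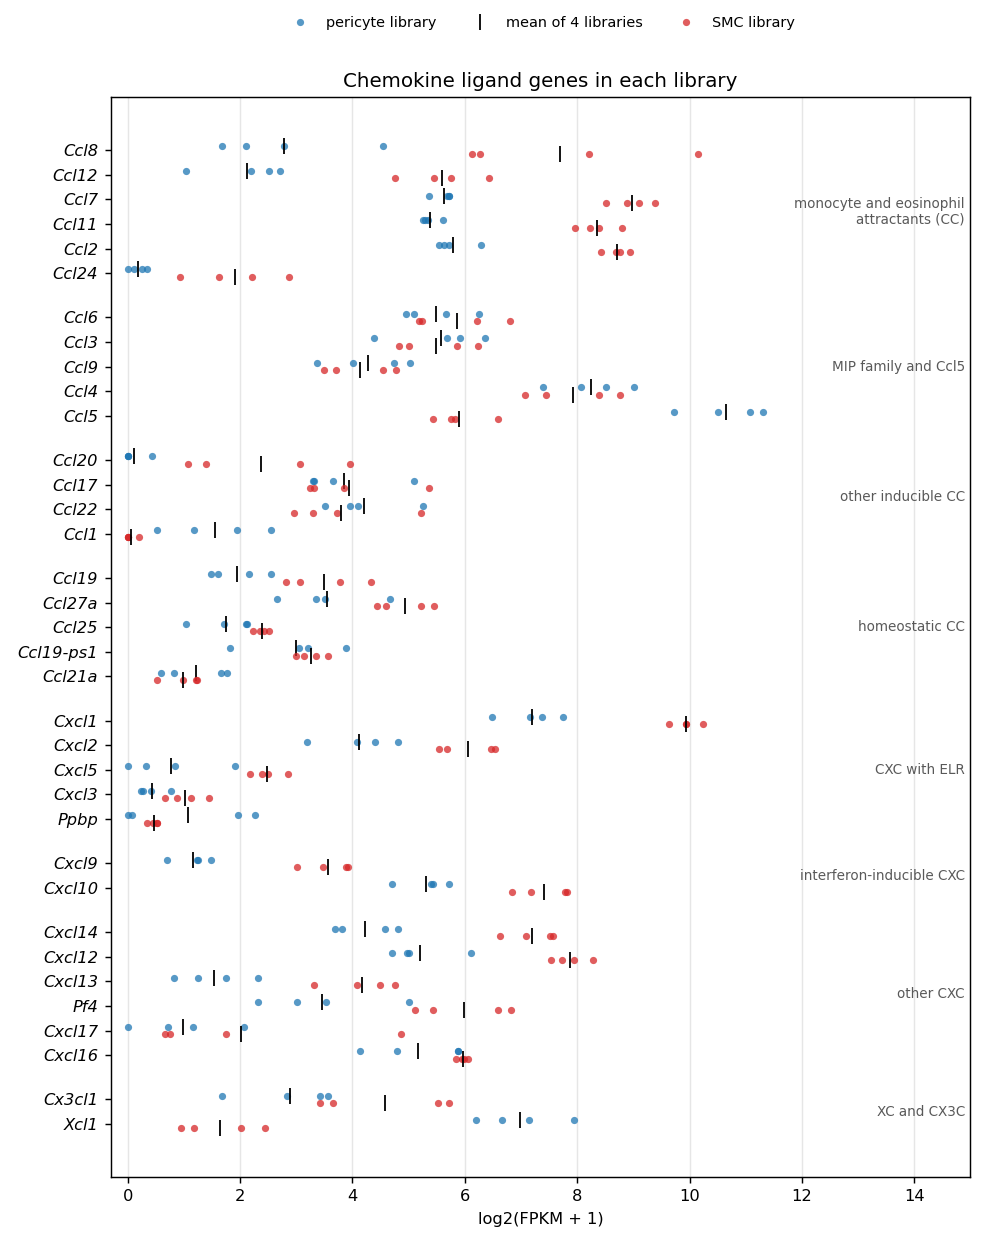
Level of each named chemokine ligand gene as log2(FPKM + 1), with 1 point per library (4 pericyte and 4 SMC libraries), black ticks for group means and genes grouped by role. The SMC points of Ccl2, Ccl7, Ccl11, Ccl12 and Ccl8 lie right of all pericyte points, the points of Ccl3, Ccl4, Ccl6 and Ccl9 are mixed, and Ccl5 and Xcl1 lie on the pericyte side.

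The macrophage inflammatory protein genes, whose products attract monocytes and T cells, did not follow these ligands. Ccl4 had 267, 513, 364 and 166 FPKM in PC-1 to PC-4 and 431, 335, 174 and 134 FPKM in SMC-1 to SMC-4. Ccl3 had 50.1, 80.9, 59.6 and 19.8 FPKM in PC-1 to PC-4 and 74.3, 57.4, 31.2 and 27.5 FPKM in SMC-1 to SMC-4. Both genes were highest in PC-2 and SMC-1 and the groups overlapped. The log2 fold changes were -0.32 (SE 0.48, limma q = 0.716) for Ccl4 and -0.10 (SE 0.50, limma q = 0.922) for Ccl3, with 95% intervals of -1.44 to 0.80 and -1.26 to 1.07. Ccl6 and Ccl9, related ligands of Ccr1, had 30.2 to 75.2 FPKM across PC-1 to PC-4 and 35.2 to 110.3 FPKM across SMC-1 to SMC-4, and 9.30 to 31.6 FPKM across PC-1 to PC-4 and 10.3 to 26.4 FPKM across SMC-1 to SMC-4, respectively. Their log2 fold changes were 0.37 (SE 0.45, limma q = 0.655) and -0.15 (SE 0.45, limma q = 0.857). The sign of Ccl3 and Ccl9 turned positive (0.14 and 0.08) when each library was scaled to the same sum.

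Ccl5, which is stored and released by T and NK cells, was the most abundant chemokine ligand in the pericyte libraries. It had 849, 2532, 2167 and 1451 FPKM in PC-1 to PC-4 and 53.1, 42.0, 56.1 and 95.4 FPKM in SMC-1 to SMC-4. Even the lowest pericyte library was above the highest SMC library by several fold, and the ratio of group means was 28.4. Its log2 fold change was -4.75 (SE 0.39, limma q = 0.000233). Xcl1, the C-class ligand that attracts Xcr1+ dendritic cells, had 72.7, 141, 246 and 99.8 FPKM in PC-1 to PC-4 and 0.942, 1.25, 4.44 and 3.04 FPKM in SMC-1 to SMC-4. PC-3 was the highest library and SMC-3 was the highest SMC library, far below any pericyte library. The log2 fold change of Xcl1 was -5.34 (SE 0.47, limma q = 0.000291). Both calls were kept in every leave-out and alternative run here, including limma's treat test.

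Lymphocyte markers moved with both genes. The NK and cytotoxic list (Ncr1, Klrb1c, Klrd1, Nkg7, Gzma and Prf1) was called higher in pericytes for 6 of 6 genes, and its summed FPKM was 1073 to 2555 across pericyte libraries and 20.6 to 26.3 across SMC libraries. The T cell list (Cd3d, Cd3e, Cd3g, Cd2, Cd5, Lck, Cd4 and Cd8a) was called for 7 of 8 genes, all but Cd4, with a summed FPKM of 1595 to 2436 and 25.5 to 55.1, and the B cell list for 5 of 6 genes with 798 to 2016 and 9.21 to 31.9. None of these genes was listed at 0 in all 4 libraries of a group. Their part in the levels of Ccl5 and Xcl1 was not tested, and in bulk RNA fewer cells of a type and less RNA per cell cannot be told apart.

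Of the other inducible CC ligands, Ccl20 was called higher in SMCs and Ccl1 was higher in pericytes below the fold threshold. Ccl20, which attracts Ccr6+ lymphocytes and dendritic cells, was listed at 0 in PC-1 to PC-3, had 0.358 FPKM in PC-4 and had 7.35, 14.5, 1.10 and 1.64 FPKM in SMC-1 to SMC-4. SMC-1 and SMC-2 were well above SMC-3 and SMC-4, and the fitted difference was 2.26 (SE 0.63, limma q = 0.0417). This call was lost when any pericyte library, SMC-1 or SMC-2 was left out (limma q = 0.054 to 0.0997). Ccl1, a Ccr8 ligand made by activated T cells and mast cells, had 0.428, 1.27, 4.85 and 2.86 FPKM in PC-1 to PC-4, was listed at 0 in SMC-1, SMC-2 and SMC-4 and had 0.153 FPKM in SMC-3. Its log2 fold change was -1.50 (SE 0.41, limma q = 0.0383), and the q value rose to between 0.0542 and 0.0914 without PC-3, PC-4 or any SMC library. With a pseudocount of 0.1 Ccl1 passed both thresholds (-3.84, limma q = 0.00473). Of the mast cell list, 1 of 6 genes was called higher in pericytes and the list summed to 42.6 to 70.8 FPKM across pericyte libraries and 3.25 to 19.3 FPKM across SMC libraries, and its part in Ccl1 was not tested.

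Ccl17 and Ccl22, the ligands of Ccr4 that dendritic cells make, had overlapping groups. Ccl17 had 8.87, 33.3, 11.6 and 8.91 FPKM in PC-1 to PC-4 and 13.4, 39.9, 8.45 and 9.02 FPKM in SMC-1 to SMC-4. Ccl22 had 14.6, 37.4, 10.5 and 16.2 FPKM in PC-1 to PC-4 and 12.3, 36.1, 6.75 and 8.80 FPKM in SMC-1 to SMC-4. For both genes the values of PC-2 and SMC-2 stood above those of the other libraries of their group. The log2 fold changes were 0.10 (SE 0.59, limma q = 0.934) and -0.41 (SE 0.57, limma q = 0.694), with 95% intervals of -1.29 to 1.49 and -1.75 to 0.92. The dendritic cell list was called higher in pericytes for 3 of 6 genes and summed to 81.3 to 213 FPKM across pericyte libraries and 19.8 to 43.1 FPKM across SMC libraries, and its part in these ligands was not tested.

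The homeostatic CC ligands, which guide leukocytes through lymph nodes, gut and skin, had 0 of 9 tested members called by limma. At a q value below 0.05 only Ccl19 passed, and at an unadjusted p below 0.05 also Ccl27a and Ccl25 (3 in all). Ccl19, a Ccr7 ligand that places T cells and dendritic cells in lymph nodes, had 1.80, 3.47, 2.04 and 4.83 FPKM in PC-1 to PC-4 and 7.38, 6.10, 12.7 and 19.2 FPKM in SMC-1 to SMC-4. The groups did not overlap and the log2 fold change was 1.55 (SE 0.39, limma q = 0.0269). Without PC-1, PC-3 or SMC-3 its q value was 0.0687 to 0.0727. In addition, 96.4% of its 50-base stretches also occur in Gm2023 and Gm2442, so its reads cannot be assigned with certainty. The other Ccr7 ligand, Ccl21a, was low at 0.501 to 2.42 FPKM across PC-1 to PC-4 and 0.435 to 1.35 FPKM across SMC-1 to SMC-4, with a log2 fold change of -0.22 (SE 0.31, limma q = 0.698), and it shares 99.8% of its stretches with Ccl21b, Ccl21c and 3 predicted genes.

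Ccl27a, a skin-associated ligand of Ccr10, had 9.25, 24.3, 5.34 and 10.4 FPKM in PC-1 to PC-4 and 43.0, 36.2, 23.3 and 20.6 FPKM in SMC-1 to SMC-4. PC-2 lay within the SMC range, and the log2 fold change was 1.38 (SE 0.44, limma q = 0.066), which passed (limma q = 0.0107) without PC-2. It shares 43.3% of its stretches with Ccl27b and predicted genes. Ccl25, a gut and thymus ligand of Ccr9, had 1.05 to 3.34 FPKM across PC-1 to PC-4 and 3.69 to 4.70 FPKM across SMC-1 to SMC-4, and the pseudogene Ccl19-ps1 had 2.54 to 13.8 FPKM across PC-1 to PC-4 and 7.01 to 10.9 FPKM across SMC-1 to SMC-4. Their log2 fold changes of 0.64 (SE 0.24, limma q = 0.114) and 0.27 (SE 0.41, limma q = 0.723) did not pass, although the SMC libraries all lay above the pericyte libraries for Ccl25.

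Among the CXC ligands with ELR, which recruit neutrophils through Cxcr2, 1 of 6 was called and 3 of 6 were higher in SMCs at a q value below 0.05. Cxcl1 had 142, 213, 88.6 and 164 FPKM in PC-1 to PC-4 and 1216, 982, 791 and 976 FPKM in SMC-1 to SMC-4. It was the most abundant chemokine ligand in SMC-1 to SMC-3 and the groups were far apart. On the log2 scale the difference was 2.75 (SE 0.27, limma q = 0.000482). Cxcl2 had 15.9, 20.2, 26.9 and 8.17 FPKM in PC-1 to PC-4 and 91.4, 87.7, 45.5 and 50.5 FPKM in SMC-1 to SMC-4, a log2 fold change of 1.94 (SE 0.39, limma q = 0.0118) just below the fold threshold. Cxcl2 was called without PC-2, PC-3, SMC-3 or SMC-4 (2.03, 2.16, 2.11 and 2.06) and with quantile (2.01) or same-sum scaling (2.18). Cxcl5 was lower, with 0.788, 0.257, 0 and 2.76 FPKM in PC-1 to PC-4 and 4.23, 3.53, 4.64 and 6.20 FPKM in SMC-1 to SMC-4. Its log2 fold change was 1.71 (SE 0.40, limma q = 0.0218), and its q value was 0.0554 without SMC-3 and 0.0599 without SMC-4. Cxcl5 was called without PC-4 (2.09), with a pseudocount of 0.1 (3.08) and with same-sum scaling (2.02).

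Cxcl3 had 0.185 to 0.714 FPKM across PC-1 to PC-4 and 0.577 to 1.72 FPKM across SMC-1 to SMC-4, with a log2 fold change of 0.60 (SE 0.19, limma q = 0.0693) that passed without PC-4 (limma q = 0.0459) or SMC-3 (limma q = 0.0427). Ppbp, which platelets release, had 0.0504, 2.93, 3.83 and 0 FPKM in PC-1 to PC-4 and 0.273 to 0.444 FPKM in the SMC libraries. PC-2 and PC-3 were high and the other pericyte libraries were at or near 0, and its log2 fold change was -0.62 (SE 0.55, limma q = 0.55). The neutrophil list was called higher in pericytes for 1 of 6 genes (Elane), and its summed FPKM varied from 842 to 4561 across pericyte libraries and from 220.0 to 2663 across SMC libraries. Its part in these ligands was not tested.

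The promoters of the ELR genes Cxcl1, Cxcl2 and Cxcl3 are shown because these genes lie close together on chromosome 5 and carry the same NF-kB match. That of Ccl20 is shown because it holds an NF-kB match as well. Of the other ELR genes, Ppbp and Cxcl15 had no NF-kB match in the promoter sequence searched, and none was available for Cxcl5. NF-kB is the factor known to switch on chemokine genes after tumor necrosis factor or interleukin 1. The stretches are RefSeq sequence of build GRCm38.p6, 5′ to 3′ on the gene's strand, from base -130 to base -1 before the transcript start, with matches to the NF-kB consensus on either strand in capitals. They lie at chr5:90891115-90891244, plus strand (Cxcl1), chr5:90903769-90903898, plus strand (Cxcl2), chr5:90785971-90786100, plus strand (Cxcl3) and chr1:83116636-83116765, plus strand (Ccl20).
Cxcl1: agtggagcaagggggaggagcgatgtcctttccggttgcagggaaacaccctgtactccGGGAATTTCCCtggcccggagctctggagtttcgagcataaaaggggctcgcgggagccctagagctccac
Cxcl2: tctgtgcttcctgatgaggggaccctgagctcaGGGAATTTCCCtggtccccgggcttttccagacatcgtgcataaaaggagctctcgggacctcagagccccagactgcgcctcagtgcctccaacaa
Cxcl3: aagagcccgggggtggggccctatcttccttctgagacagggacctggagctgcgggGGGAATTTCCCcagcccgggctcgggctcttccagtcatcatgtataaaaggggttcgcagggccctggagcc
Ccl20: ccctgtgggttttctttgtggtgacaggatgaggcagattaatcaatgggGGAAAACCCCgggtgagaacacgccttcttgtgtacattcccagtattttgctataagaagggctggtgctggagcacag
Cxcl1, Cxcl2 and Cxcl3 held the same run of letters, which matches the consensus on both strands with an offset of 1 base, starting 71, 97 and 73 bases before the start. Ccl20 held a different match 80 bases before it. The group means in SMCs were 991, 68.8 and 1.08 FPKM for Cxcl1, Cxcl2 and Cxcl3, and the part of the matches in these levels was not tested.

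The interferon-inducible CXC ligands attract Cxcr3+ T and NK cells, and 2 of 3 were called higher in SMCs. Cxcl9, which depends mainly on interferon gamma, had 1.37, 1.34, 0.620 and 1.80 FPKM in PC-1 to PC-4 and 7.03, 13.8, 10.2 and 14.1 FPKM in SMC-1 to SMC-4. Cxcl10, which also responds to type I interferon, had 25.1, 41.0, 51.8 and 42.3 FPKM in PC-1 to PC-4 and 114, 144, 219 and 225 FPKM in SMC-1 to SMC-4. The groups did not overlap for either gene. The log2 fold changes were 2.41 (SE 0.25, limma q = 0.00063) for Cxcl9 and 2.09 (SE 0.30, limma q = 0.00243) for Cxcl10. Cxcl10 fell just below the fold threshold without PC-1, SMC-3 or SMC-4 (1.89, 1.97 and 1.95) while its q value stayed under 0.01. Cxcl10 and Cxcl11 lie within Art3 (mean 79.9 FPKM), which is on the opposite strand, so reads of the overlapping genes cannot be told apart if strand was not used. Cxcl11 stayed below 1 FPKM in every library.

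The promoters of Cxcl10 and Cxcl9 are shown for comparison, from base -250 to base -1 of RefSeq GRCm38.p6, at chr5:92348890-92349139, minus strand, and chr5:92328080-92328329, minus strand. Capitals mark matches to GAAANNGAA, the core letters of an interferon-stimulated response element, and in Cxcl10 also to the NF-kB consensus and to TGANTCA, the AP-1 letters.
Cxcl10: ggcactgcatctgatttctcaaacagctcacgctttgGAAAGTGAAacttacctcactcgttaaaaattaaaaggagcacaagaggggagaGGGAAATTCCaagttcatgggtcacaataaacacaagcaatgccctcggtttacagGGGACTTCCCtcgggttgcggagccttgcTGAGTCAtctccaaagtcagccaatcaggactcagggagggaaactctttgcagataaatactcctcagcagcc
Cxcl9: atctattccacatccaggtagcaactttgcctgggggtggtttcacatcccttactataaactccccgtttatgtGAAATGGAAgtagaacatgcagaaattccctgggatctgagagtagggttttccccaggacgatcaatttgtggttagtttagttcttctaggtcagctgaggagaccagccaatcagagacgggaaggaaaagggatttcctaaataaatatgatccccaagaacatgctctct
Cxcl10 held 1 match to GAAANNGAA at base -213, NF-kB matches at bases -159 and -103, and 1 AP-1 match at base -74. Cxcl9 held GAAANNGAA at base -175 and no NF-kB match in its window, and its 1 AP-1 match lay at base 32 after the start, outside the printed stretch. RefSeq windows of 300 bases (250 before to 50 after the start) were found for 29 of 43 member symbols. Searched on both strands, the NF-kB consensus was in 24.1% of these 29 (Ccl9, Ccl20, Ccl27a, Cxcl1, Cxcl2, Cxcl3 and Cxcl10) and in 5.14% of 27025 genes with a window. GAAANNGAA was in 20.7% and 9.76%, and TGANTCA in 24.1% and 8.97%. These are shares of letters in a window and were not tested.

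Among the other CXC ligands, 4 of 6 were called higher in SMCs. Cxcl12, the ligand of Cxcr4 that retains hematopoietic and progenitor cells, had 25.1, 31.0, 30.2 and 68.1 FPKM in PC-1 to PC-4 and 184, 210.5, 247 and 311 FPKM in SMC-1 to SMC-4. Cxcl14, made by many resting tissues, had 13.1, 23.0, 12.0 and 27.1 FPKM in PC-1 to PC-4 and 135, 97.3, 188 and 182 FPKM in SMC-1 to SMC-4. Cxcl13, which draws Cxcr5+ B cells into follicles, had 0.769, 2.37, 1.39 and 3.97 FPKM in PC-1 to PC-4 and 21.6, 8.96, 16.0 and 26.2 FPKM in SMC-1 to SMC-4. All SMC libraries of these genes lay above all pericyte libraries, and PC-4 was the highest pericyte library. The log2 fold changes were 2.68 (SE 0.32, limma q = 0.00119) for Cxcl12, 2.97 (SE 0.33, limma q = 0.000784) for Cxcl14 and 2.63 (SE 0.41, limma q = 0.00381) for Cxcl13.

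Pf4 (platelet factor 4), known from platelet granules, had 10.6, 31.0, 7.08 and 3.99 FPKM in PC-1 to PC-4 and 113, 95.5, 33.7 and 42.4 FPKM in SMC-1 to SMC-4. PC-2 came close to SMC-3, the lowest SMC library, but the groups did not overlap. The log2 fold change was 2.53 (SE 0.65, limma q = 0.0296), and the call was lost without PC-1, PC-3, PC-4, SMC-1 or SMC-2 (limma q = 0.0639 to 0.0778). Of the megakaryocyte and platelet list, Itga2b was called higher in SMCs, Gp9, Gp1ba and Gp1bb stayed below 1 FPKM in every library, and Treml1 reached 1.77 FPKM in PC-2. The summed FPKM of the list was 0.883 to 5.24 across pericyte libraries and 9.89 to 17.3 across SMC libraries, and its part in Pf4 was not tested.

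Cxcl16, a membrane-bound ligand of Cxcr6, had 16.6, 26.6, 57.8 and 57.6 FPKM in PC-1 to PC-4 and 65.5, 56.8, 62.7 and 60.9 FPKM in SMC-1 to SMC-4. The SMC libraries were close to each other and the pericyte libraries were spread, with PC-3 and PC-4 within the SMC range, and the log2 fold change of 0.79 (SE 0.39, limma q = 0.228) did not pass. Cxcl17, a mucosal ligand, had 1.24, 0.645, 3.18 and 0 FPKM in PC-1 to PC-4 and 2.36, 0.594, 28.3 and 0.682 FPKM in SMC-1 to SMC-4. Its SMC mean rested on SMC-3, and the log2 fold change was 1.02 (SE 0.98, limma q = 0.566). Cx3cl1 (fractalkine), a membrane-anchored ligand on vessel walls, had 6.12, 2.22, 10.9 and 9.79 FPKM in PC-1 to PC-4 and 9.67, 11.5, 51.5 and 45.1 FPKM in SMC-1 to SMC-4. SMC-3 and SMC-4 were high while SMC-1 and SMC-2 lay near the upper pericyte values. Its log2 fold change was 1.69 (SE 0.68, limma q = 0.132), with a 95% interval of 0.10 to 3.29.

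Some markers of stromal, endothelial and macrophage cells moved with the SMC-high ligands. The fibroblast list was called higher in SMCs for 5 of 7 genes (Pdgfra, Lum, Col1a1, Pi16 and Dpt), while Dcn was listed at 0 in all SMC libraries, and its summed FPKM was 948 to 1873 across pericyte libraries and 3784 to 4597 across SMC libraries, and without Dcn the pericyte sums were 439 to 757. The endothelial list was called for 5 of 8 genes (81.9 to 134 and 297 to 981 FPKM), and the lymphatic endothelial list for 1 of 6 (22.7 to 41.8 and 96.7 to 127 FPKM). The macrophage list was called for 4 of 9 genes, C1qa, C1qb, C1qc and Mrc1 (171 to 377 and 629 to 946 FPKM). Emr1 and Fcgr1 were higher in SMCs past the q threshold only, and Cd68, Csf1r and Cd14 did not pass. Of 3 satellite cell markers, limma called 0, also 0 at an unadjusted p below 0.05 (4.55 to 37.4 and 19.4 to 64.3 FPKM). The part of these cells in the ligand levels was not tested.

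The remaining 6 tested members (Cxcl11, Cxcl15, Ccl21b, Ccl21c, Ccl19-ps3 and the second Ccl25 identifier) had group means below 1 FPKM. Their log2 fold changes ranged from -0.49 to 0.30 and none passed. Ccl19-ps3 had 2.84 FPKM in PC-4 and was listed at 0 in the other libraries.

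The make-up of the chemokine ligand signal differed between the groups. Together the members held 0.254% to 0.466% of the FPKM in pericyte libraries and 0.527% to 0.707% in SMC libraries. Ccl5 took 48.5% to 64.8% of the ligand FPKM in pericytes and was first in all 4 libraries. The 3 ligands with the highest group means in pericytes (Ccl5, Ccl4 and Cxcl1) together held 71.8% to 80.0% of the ligand FPKM of each library. In SMCs the 3 ligands with the highest group means (Cxcl1, Ccl7 and Ccl2) together held 42.0% to 49.8% of the ligand FPKM of each library. Cxcl1 was first in SMC-1 to SMC-3 with 21.4% to 28.8%, whereas Ccl8 was first in SMC-4 with 23.0% and took 1.82% in SMC-1. Without Ccl5, the summed ligand FPKM was 903 to 1542 in pericytes and 3522 to 4846 in SMCs.

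**Figure D3:**
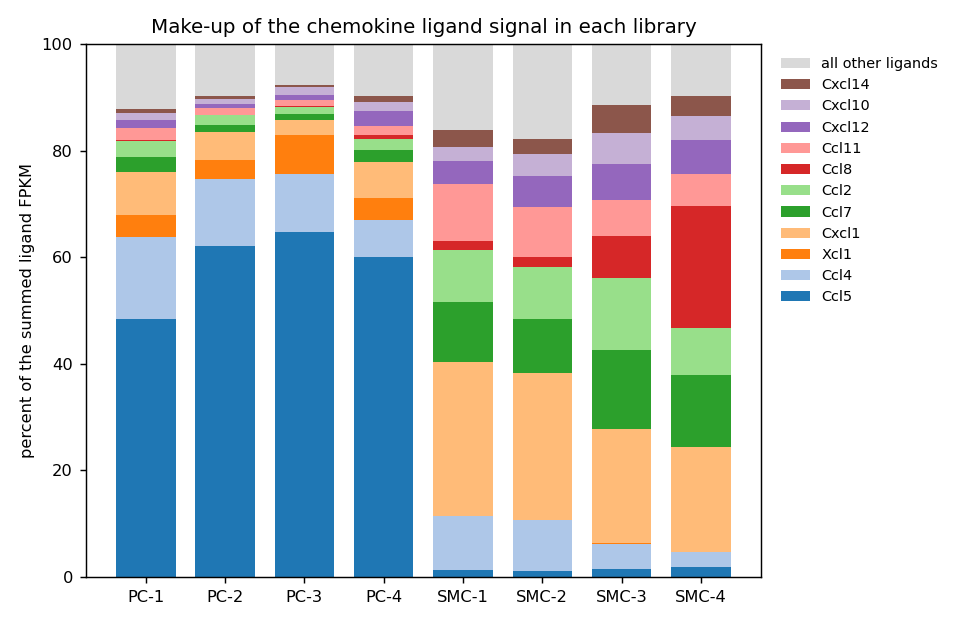
Share of the summed chemokine ligand FPKM (percent) taken by 11 ligands and by all others, 1 bar per library. Ccl5 fills 48.5% to 64.8% of each pericyte bar and under 2% of each SMC bar, where Cxcl1, Ccl7, Ccl2 and Ccl11 are spread more evenly and Ccl8 widens in SMC-4.

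Which library was highest within a group differed between members. The highest pericyte library was PC-2 for 16 of 35 named members, PC-4 for 11, PC-3 for 8 and PC-1 for none, and the highest SMC library was SMC-1 for 12, SMC-4 for 11, SMC-3 for 8 and SMC-2 for 4. Ccl3, Ccl4, Ccl6, Ccl9, Ccl11, Ccl24, Ccl27a, Cxcl1 and Pf4 were highest in PC-2 and SMC-1. Ccl8, Ccl19, Cxcl3, Cxcl5, Cxcl9, Cxcl12 and Cxcl13 were highest in PC-4 and SMC-4, where Pdgfrb was also highest (17.6 and 91.5 FPKM). This was not particular to Pdgfrb. The endothelial marker Kdr (14.0 and 94.7 FPKM) and the macrophage marker Mrc1 (2.25 and 11.0 FPKM) were highest there too. Other markers of these lists differed, with Pecam1 highest in PC-1 and C1qa in PC-3 among pericyte libraries. Ccl1, Cx3cl1, Cxcl17 and Xcl1 were highest in PC-3 and SMC-3. PC-2 also had the largest summed FPKM over all genes, and these patterns were not tested.

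Many members lie in clusters on chromosomes 11 and 5 (NCBI Build 37). On chromosome 11, Ccl2, Ccl7, Ccl11, Ccl12 and Ccl8 lie in this order at chr11:81849073-81930301 and were all called higher in SMCs. The next members are Ccl1 and Ccl5, the latter at chr11:83339280-83344020, both higher in pericytes, and they are followed by Ccl9, Ccl6, Ccl3 and Ccl4 up to base 83478185, for which no difference passed. On chromosome 5, Cxcl5, Ppbp, Pf4, Cxcl3, Cxcl15, Cxcl1 and Cxcl2 lie at chr5:91188325-91334935, and calls were mixed there, with Pf4 and Cxcl1 called, Cxcl5 and Cxcl2 past the q threshold only and Ppbp, Cxcl3 and Cxcl15 not passing. Cxcl9, Cxcl10 and Cxcl11 follow at chr5:92750357-92794511.

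**Figure D4:**
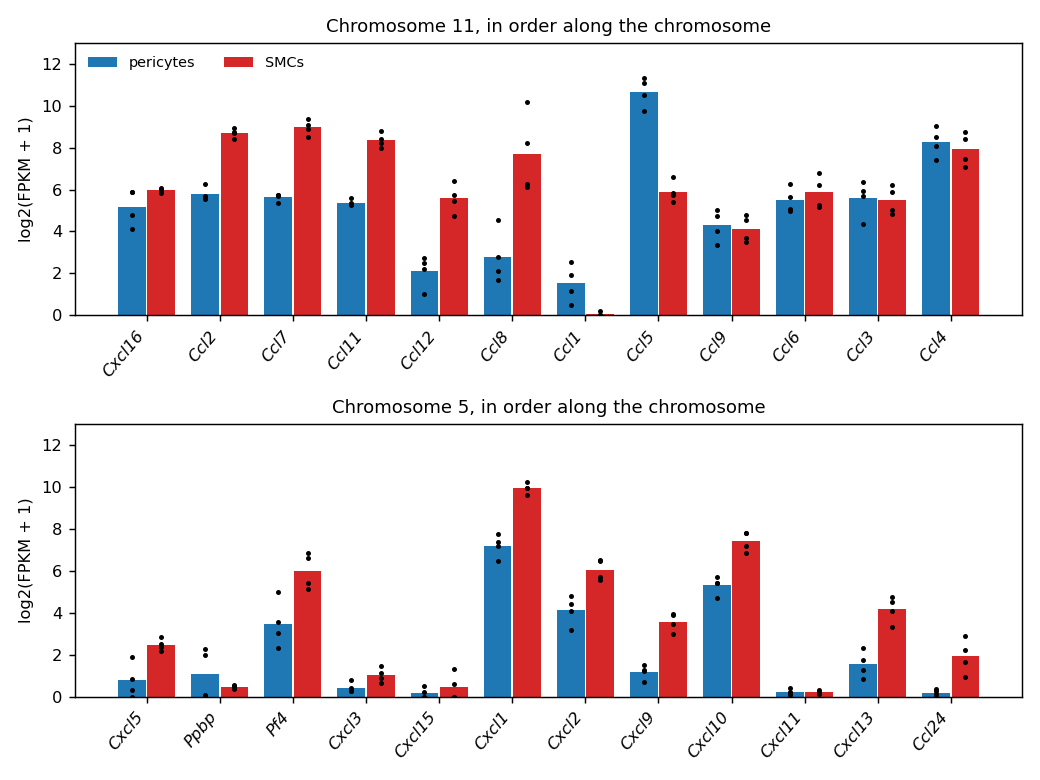
Mean log2(FPKM + 1) of pericytes and SMCs (bars, starting at 0) with the 4 libraries of each group as points, for the tested chemokine ligand genes of chromosomes 11 and 5 in chromosome order and not to genomic scale. SMC bars are taller from Ccl2 to Ccl8, Ccl1 and Ccl5 turn to pericytes, and Ccl9 to Ccl4 have bars of similar height.

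Signalling receptors that differed were higher in pericytes. Of 19 signalling receptor genes, limma called 11 higher in pericytes (3.24% of all genes) and 0 in SMCs. At a q value below 0.05 the counts were 12 and 0, and at an unadjusted p below 0.05 they were 13 and 0. Cxcr5, the receptor for Cxcl13 on B cells, had 49.5, 45.4, 41.9 and 45.0 FPKM in PC-1 to PC-4 and 1.11, 0.878, 0.301 and 0.754 FPKM in SMC-1 to SMC-4, a log2 fold change of -4.74 (SE 0.15, limma q = 5.09e-06). Cxcr6, the Cxcl16 receptor, had 104 to 308 FPKM across PC-1 to PC-4 and 4.39 to 11.1 FPKM across SMC-1 to SMC-4, and Ccr7, the Ccl19 and Ccl21 receptor, had 1172 to 1273 FPKM across PC-1 to PC-4 and 37.3 to 90.8 FPKM across SMC-1 to SMC-4. All pericyte libraries were above all SMC libraries for these genes, with log2 fold changes of -4.36 (SE 0.40, limma q = 0.000342) for Cxcr6 and -4.27 (SE 0.25, limma q = 5.48e-05) for Ccr7. Ccr6, the Ccl20 receptor, had a log2 fold change of -3.90 (SE 0.29, limma q = 0.000137).

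Receptors of the other called ligands followed, with log2 fold changes of -3.67 (SE 0.39, limma q = 0.000688) for Ccr8, -3.06 (SE 0.21, limma q = 0.000111) for Cxcr3, -2.57 (SE 0.50, limma q = 0.00998) for Cxcr4 and -2.28 (SE 0.35, limma q = 0.00344) for Ccr2. Ccr9 and Ccr4, named after their values were seen, were also called. Ccr3 and Cxcr2, the eosinophil and neutrophil receptors, were low at 0.105 to 0.444 FPKM across PC-1 to PC-4 and 0.306 to 4.06 FPKM across SMC-1 to SMC-4, and 0.0412 to 0.423 FPKM across PC-1 to PC-4 and 0.136 to 0.689 FPKM across SMC-1 to SMC-4, and did not pass. Xcr1, the receptor for Xcl1, had 2.05 to 4.46 FPKM across PC-1 to PC-4 and 0.592 to 1.93 FPKM across SMC-1 to SMC-4 and a log2 fold change of -0.77 (SE 0.24, limma q = 0.0644).

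Each of 24 ligands was then set beside a single known receptor, and the counts depend on that choice. Other receptors of a ligand were left out, such as Cxcr7 for Cxcl12, which was called higher in SMCs. The called ligands Pf4, Cxcl14 and Ccl5 had no pair. In 11 pairs the ligand was called higher in SMCs, and in these the receptor was called higher in pericytes in 9 pairs (Ccl2, Ccl7 and Ccl12 with Ccr2, Ccl8 with Ccr8, Ccl20 with Ccr6, Cxcl9 and Cxcl10 with Cxcr3, Cxcl12 with Cxcr4 and Cxcl13 with Cxcr5), did not pass in 2 (Ccl11 with Ccr3 and Cxcl1 with Cxcr2) and was called higher in SMCs in 0. Ccr2 and Cxcr3 are repeated among these 9 pairs, and 11 of all 19 signalling receptors were called higher in pericytes. The receptor was also called higher in pericytes for ligands that were not called higher in SMCs. These pairs were Ccl1 with Ccr8, Ccl17 and Ccl22 with Ccr4, Ccl19 and Ccl21a with Ccr7, Ccl25 with Ccr9 and Cxcl16 with Cxcr6. Xcl1 was called higher in pericytes while Xcr1 did not pass. T cell, B cell and NK markers moved with the receptors as given above, and their part in the receptor levels was not tested.

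**Figure D5:**
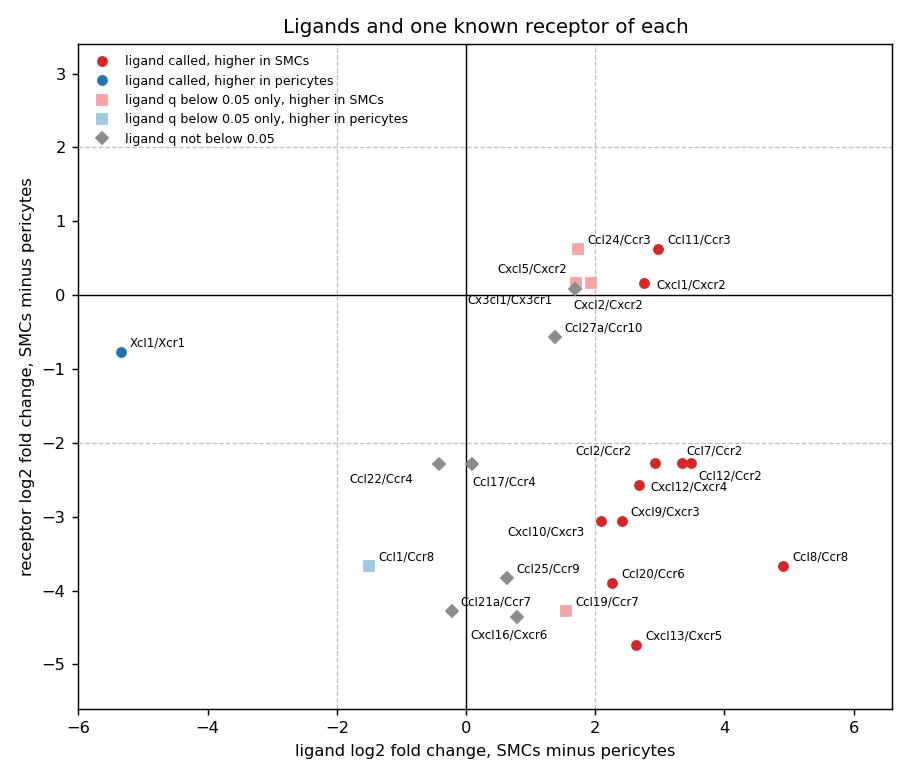
Log2 fold change (SMCs minus pericytes) of a receptor against that of its ligand for 24 known pairs, with a single receptor chosen per ligand. Dashed lines lie at 2 and -2 and colours show the call of the ligand. The 9 pairs with the ligand called in SMCs and the receptor called in pericytes fill the lower right, and Xcl1 with Xcr1 lies at the far left.

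Some atypical receptors, which scavenge or transport chemokines, were higher in SMCs. Of 6 gene identifiers, limma called 3 higher in SMCs (2.66% of all genes) and 0 in pericytes, and at an unadjusted p below 0.05 the counts were 5 and 0. Darc (also Ackr1), the transporter of inflammatory CC and CXC ligands on venular endothelium, had 5.80, 7.14, 2.92 and 7.61 FPKM in PC-1 to PC-4 and 145, 161, 264 and 340.0 FPKM in SMC-1 to SMC-4. The groups were far apart, with a log2 fold change of 5.03 (SE 0.36, limma q = 0.000116). Cxcr7 (Ackr3), which binds Cxcl12, had 7.67 to 35.2 FPKM across PC-1 to PC-4 and 99.9 to 153 FPKM across SMC-1 to SMC-4 and a log2 fold change of 2.46 (SE 0.45, limma q = 0.00773). Ccrl1 (Ackr4), which binds Ccl19, Ccl21 and Ccl25, had 0.845 to 5.03 FPKM across PC-1 to PC-4 and 9.05 to 21.7 FPKM across SMC-1 to SMC-4 and a log2 fold change of 2.30 (SE 0.41, limma q = 0.00666) for identifier ENSMUSG00000079355, while its other identifier, ENSMUSG00000041748, stayed below 1 FPKM in every library and did not pass (-0.09, limma q = 0.706). Endothelial markers moved with these genes as given above, and their part was not tested.

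Genes of the pathways known to switch on these ligands were mixed. Of 12 genes of the NF-kB list, Il6 and Vcam1, both targets of the pathway, were called higher in SMCs (2.66% of all genes) and Tnfaip3, its inhibitor, was called higher in pericytes (3.24% of all genes). Il6 had 29.7, 34.7, 44.8 and 75.3 FPKM in PC-1 to PC-4 and 206, 217, 392 and 615 FPKM in SMC-1 to SMC-4, without overlap between the groups and with a difference of 2.87 (SE 0.43, limma q = 0.00321). Vcam1 had a log2 fold change of 2.83 (SE 0.44, limma q = 0.00362) and Tnfaip3 one of -2.35 (SE 0.49, limma q = 0.0129). Nfkb1, a subunit of NF-kB with -1.19 (SE 0.17, limma q = 0.00246), was lower in SMCs at a q value below 0.05, and 8 did not pass. Of 12 genes of the interferon list, 6 were higher in SMCs (11.2% of all genes) and 4 in pericytes (10.6% of all genes) at a q value below 0.05, with 1 called in each direction. Ifit1, an interferon-stimulated gene, had 3.71 to 11.6 FPKM across PC-1 to PC-4 and 26.5 to 93.0 FPKM across SMC-1 to SMC-4 and a log2 fold change of 2.75 (SE 0.47, limma q = 0.00565). Ifng, which encodes interferon gamma, had 10.2 to 23.7 FPKM across PC-1 to PC-4 and 0.0415 to 0.555 FPKM across SMC-1 to SMC-4 and a log2 fold change of -3.77 (SE 0.26, limma q = 0.000111), opposite to Cxcl9 and Cxcl10.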

How the data were processed

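Reads were aligned by the authors to NCBI Build 37 with TopHat and Bowtie2 and an Ensembl annotation, and FPKM per gene and library were deposited. The program behind the FPKM values and the strand setting are not given in the sources used here. FPKM hold no read counts, so counting error is unknown, and without strand, overlapping genes share reads.

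Values were taken as log2(FPKM + 1), which compresses low genes, and fitted with limma 3.58.1 in R 4.3.3 (lmFit, eBayes) over the 27414 genes that had a value above 0 in any of 8 libraries, with Benjamini-Hochberg q values over all of them. As in the study's results, genes with a q value below 0.05 and a log2 fold change beyond 2 were called. The script was tested on simulated data. Settings changed one at a time were the pseudocount (0.1), a minimum of 1 FPKM in 4 libraries, quantile, same-sum (TPM) and median-ratio scaling, the replicate number as block, an intensity trend, limma's treat at a log2 fold of 1, and each library left out. Members, gene lists, marker lists and pairs were chosen with earlier results of these data known. Named were members with a mean of at least 1 FPKM in a group, called members, up to 4 called receptors per direction with the receptors of called ligands, and called genes of the NF-kB and interferon lists. Shared 50-base stretches were counted in GENCODE M1 coding transcripts. Python 3.11.15 was used for summaries. A few items, among them 1 receptor, 1 marker and 1 motif, are not reported here.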

Additional observations from a re-analysis of the deposited data

Results flagged for a closer look

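In 3 of 70 groups of 4 libraries, 1 library stood apart from the others of its group by Dixon's ratio on the log2 scale, where chance gives about 1 group in 20 for values that vary. For Ccl1 and Ccl20 the other 3 libraries were listed at 0, so any value above 0 would have stood apart, and that rate does not apply. Ccl1 had 0.153 FPKM in SMC-3 and was listed at 0 in the other SMC libraries. Ccl20 had 0.358 FPKM in PC-4 and was listed at 0 in the other pericyte libraries. Ccl7 had 40.1 FPKM in PC-3 against 50.3, 52.0 and 51.6 FPKM in PC-1, PC-2 and PC-4, which is small beside its difference between the groups.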

How the results depend on the processing

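Of the 15 called members, 12 were called in every leave-one-out fit and in all 7 other settings with the same thresholds, the exceptions being Ccl20, Pf4 and Cxcl10. limma's treat called 8 members higher in SMCs in place of 13, without Ccl8 (q = 0.0680), Cxcl13 (q = 0.0530), Ccl20, Pf4 and Cxcl10. With a pseudocount of 0.1 the genes called higher in SMCs over the whole table rose from 728 to 1421, and the median log2 fold change of the members was 1.40. With the filter, which left 31 members, that median was 1.69. With single libraries left out, the whole-table calls were 607 to 774 in SMCs and 845 to 885 in pericytes, members at a q value below 0.05 were 14 to 17 and 2 to 3, receptors called were 3 and 10 to 11, and the median was 0.63 to 1.03. Same-sum scaling turned Ccl3 to 0.14 and Ccl9 to 0.0791, and leave-outs spanned 0 for Ccl3 (-0.50 to 0.16), Ccl9 (-0.46 to 0.094), Ccl17 (-0.37 to 0.52) and Ccl19-ps1 (-0.12 to 0.57), none of which passed. Ccl1 missed the threshold with quantile scaling (limma q = 0.0549). Ccl25 passed with same-sum scaling (limma q = 0.0279), Cx3cl1 with the filter (limma q = 0.0423), and Ccl27a and Cxcl3 each with 2 of the settings besides the block. Deviations of same-numbered libraries from their group means correlated at 0.327 on average over 13612 genes (0.0794 to 0.474), and 5 of 8 libraries correlated best with their own number. Across the groups, every correlation between numbers 1 or 2 and numbers 3 or 4 was negative (-0.451 to -0.102). Every correlation within numbers 1 and 2 or within numbers 3 and 4 was positive (0.0794 to 0.538). A pattern over replicate numbers was thus shared by both groups. The labels do not tie the numbers, so libraries were not treated as paired. With the replicate block, Ccl20 lost its call (limma q = 0.0752), and Cx3cl1 (0.0284), Ccl27a (0.0496) and Cxcl3 (0.0134) passed the q threshold. Among the mural markers the block brought Pdgfrb, the marker of the sort, over both thresholds (limma q = 0.00601 in place of 0.0973), and Kcnj8 (0.00142), Anpep (0.00178), Notch3 (0.0403) and Abcc9 (0.0436) over the q threshold. The cause of these changes was not tested. Without read counts, values near or at 0 set no limit on a gene's presence.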
